A study of Ovis aries with 16 samples.

Results

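PRKACA, AKT1 and PRKAA2 encode protein kinases that carry hormonal and metabolic signals inside cells. Their probes were found by the gene name or description in the scanner files. The array has 5 such probes among 15008: 2 for PRKACA, 1 for AKT1 and 2 for PRKAA2. The tissue was the hippocampus of fetal sheep in late gestation, carried by conscious ewes, and each of the 16 arrays held RNA of 1 sample. Normoxia control fetuses (NC, n = 3) had 30 min of maternal normoxia without ketamine. Normoxia fetuses with ketamine (NK, n = 4) received 3 mg/kg of ketamine intravenously before the same 30 min of normoxia. Hypoxia control fetuses (HC, n = 5) went through 30 min of maternal ventilatory hypoxia without ketamine, and hypoxia fetuses with ketamine (HK, n = 4) received the same 3 mg/kg dose before the hypoxia. All 4 groups then had 23.5 h of normoxia, and the tissue was taken 24 h after the onset of the stimulus. All fetuses carried chronic vascular catheters, and most were twins. The study assigned pregnancies to normoxia or hypoxia. The labels do not say which arrays hold twins of 1 ewe, so p-values treat the arrays as if they came from separate ewes.

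PRKACA is the alpha catalytic subunit of protein kinase A (PKA). Regulatory subunits hold it inactive until cAMP binds them and sets it free, and in hippocampal neurons PKA is known for its part in long-term potentiation and CREB-driven transcription. AKT1 is a kinase recruited to the membrane by the lipid product of PI3K, downstream of insulin and growth factor receptors, and is known for promoting survival and growth. PRKAA2 is the alpha 2 catalytic subunit of AMP-activated protein kinase (AMPK), which is switched on when AMP and ADP rise and ATP falls, and shifts cells from synthesis to energy production. These kinases are controlled largely by binding partners and phosphorylation. The arrays measured their transcripts and not their activity.

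Each probe is a single-stranded oligomer of 60 bases, printed in 1 spot per array. The sequences below were read from the scanner files and show which stretch of each transcript was measured; the first run is the part that both PRKACA probes hold in common. The AKT1 probe is given whole. The capitals in the PRKAA2 probe A_70_P039732 mark, of the 3 frames read from the probe's first bases, the first stop of the frame that runs longest without one, and only the first 30 bases of A_70_P039731 are shown:
PRKACA, shared by A_70_P039567 and A_70_P039566: gccagggaaggagagattttagtgac
AKT1, A_70_P020786: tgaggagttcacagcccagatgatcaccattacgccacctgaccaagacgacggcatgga
PRKAA2, A_70_P039732: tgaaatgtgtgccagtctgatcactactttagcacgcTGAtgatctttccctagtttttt
PRKAA2, A_70_P039731: tacttatggatatcacatactctgaactac

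By the files' annotation the PRKACA probes lie on 1 sheep transcript at bases 1499 to 1558 (A_70_P039567) and 1533 to 1592 (A_70_P039566), so they overlap by 26 bases and are not independent measurements. The AKT1 probe covers bases 1316 to 1375 of its transcript. The PRKAA2 probes cover bases 1623 to 1682 (A_70_P039732) and 1733 to 1792 (A_70_P039731) of a single transcript, with a gap of 50 bases between them, so they share no sequence. The stop in the first of these was read from the probe alone, and the end of the coding sequence was not checked against the transcript. The files list these probes as unmapped on the genome, so genome positions and exons are not given here.

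The arrays were scanned in 1 colour. A level below is log2 of a spot's processed intensity minus log2 of the 75th percentile of all probes on that array, so 0 is the 75th percentile and levels of different probes are not set against each other. That percentile was 886 to 1215 intensity units, and 76.7 to 82.6% of spots were well above background. All 5 kinase probes were well above background on 16 of 16 arrays. The intensities ran from 22.3 to 52.1 for PRKAA2, from 36.8 to 116 for PRKACA and from 487 to 933 for AKT1, while the dimmest spot still well above background was at 7.21 to 11.5 on each array. The arrays came from 2 slides, and every group had arrays on both, but NC had only 1 array on slide 2. Known markers of neurons were present (6 of 6 tested, among them the glutamate receptor genes GRIN1, GRIA1 and GRIA2, each well above background), as were 4 of 4 tested markers of astrocytes. No listed oligodendrocyte marker was named on the array, so that cell type was not checked. In whole tissue, fewer cells of a type and less RNA per cell cannot be told apart.

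Of the 3 genes, PRKAA2 was the only one with a probe past the study's criterion, an unadjusted p under 0.05 by limma's moderated test over 12545 probes, in any of 5 comparisons. One PRKAA2 probe was lower in HC than in NC, the other was higher in HK than in HC, and for both the ketamine difference was more positive in hypoxic than in normoxic fetuses, by the interaction test. None of the 25 tests of member probes passed Benjamini-Hochberg adjustment over all probes. Neither PRKACA probe nor the AKT1 probe passed the criterion in any comparison.

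The PRKAA2 probe A_70_P039731 had levels of -4.55, -4.75 and -4.35 in the 3 NC arrays. In NK the levels were -4.78, -5.02, -4.53 and -5.17. In HC they were -4.81, -5.05, -4.96, -5.02 and -5.05. All 5 HC arrays lay below all 3 NC arrays, and the HC arrays were the tightest group. In HK the levels were -4.76, -5.13, -4.29 and -4.39, the widest spread of the 4 groups, with the HK arrays both above and below those of HC. The group means ± SD were -4.55 ± 0.20 in NC, -4.64 ± 0.38 in HK, -4.88 ± 0.28 in NK and -4.98 ± 0.10 in HC, and each group overlapped the next one in that order.

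The second PRKAA2 probe, A_70_P039732, had levels of -4.98, -4.88 and -5.36 in NC and of -4.89, -5.10, -5.07 and -5.26 in NK. In HC the levels were -5.27, -5.42, -5.34, -5.21 and -5.28. In HK they were -5.04, -5.10, -4.67 and -4.77. All 4 HK arrays lay above all 5 HC arrays, while the NC and NK arrays spanned the space between and overlapped both. The group means ± SD were -4.90 ± 0.21 in HK, -5.08 ± 0.26 in NC, -5.08 ± 0.15 in NK and -5.31 ± 0.08 in HC. Neighbours in this order overlapped, and HC was again the lowest and tightest group.

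**Figure D1:**
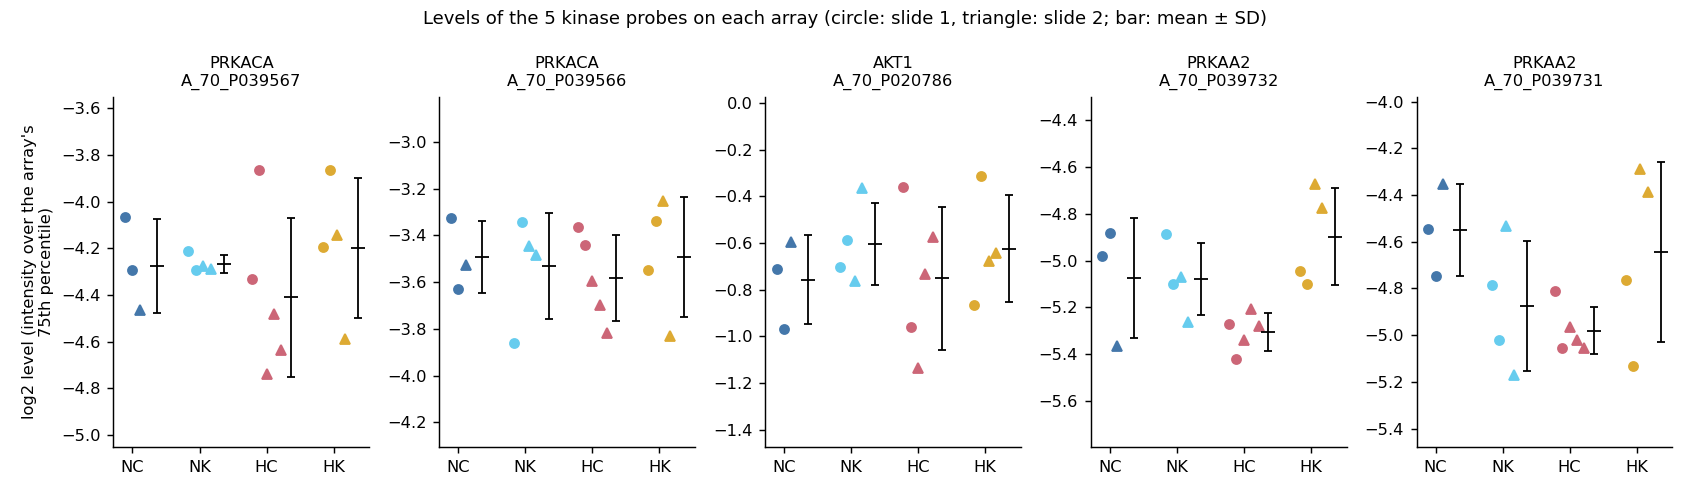
Log2 level of each kinase probe (intensity over the array's 75th percentile, vertical axis of equal span in every panel) on each array of the 4 groups (horizontal axis), with circles for slide 1, triangles for slide 2 and black bars for the mean ± SD. For PRKAA2 the 5 HC arrays lie below the 3 NC arrays in A_70_P039731 and below the 4 HK arrays in A_70_P039732, and the groups overlap for PRKACA and AKT1.

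The comparison of hypoxia with normoxia (HC-NC) asked what 30 min of hypoxia left in the tissue a day later. PRKAA2 fell by 0.43 (log2) in A_70_P039731 (SE 0.18, 95% interval -0.83 to -0.04, adjusted p = 0.423 by limma), which is a ratio of 0.742 and met the criterion. In this comparison 10.6% of all probes tested met the criterion in either direction, 4.67% as higher and 5.91% as lower, and 7.63% had groups that did not overlap. An exact two-sided permutation test of the 3 NC against the 5 HC arrays gave p = 0.0179, the smallest that 56 arrangements allow. In A_70_P039732 the difference was -0.23 (SE 0.13, 95% interval -0.51 to 0.05, adjusted p = 0.592 by limma). The difference in A_70_P039731 no longer met the criterion when NC replicate 1 or 3 or HC replicate 2, 4 or 5 was left out, with values of -0.43, -0.33, -0.41, -0.42 and -0.41. It was -0.29 on slide 1 and -0.66 on slide 2, whereas A_70_P039732 gave -0.42 on slide 1 and 0.09 on slide 2, where NC has 1 array. In that probe the NC array of slide 2 was the lowest of the 3 NC arrays, and in A_70_P039731 it was the highest. Without this array, NC replicate 3, A_70_P039732 met the criterion at -0.37.

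Ketamine given before hypoxia (HK-HC) went with a higher level of A_70_P039732 by 0.41 (SE 0.12, 95% interval 0.15 to 0.67, adjusted p = 0.972 by limma), a ratio of 1.33 that met the criterion. Here 4.77% of all probes met the criterion, 2.89% as higher and 1.88% as lower, and 0.933% had groups that did not overlap. By limma 0 probes passed adjustment in this comparison, against 598 at an unadjusted p under 0.05. The exact two-sided permutation test gave p = 0.00794, the smallest that 126 arrangements of 4 and 5 arrays allow. In A_70_P039731 the difference was 0.34 (SE 0.17, 95% interval -0.02 to 0.70, adjusted p = 0.972 by limma), short of the criterion, and the groups overlapped through HK replicate 2, without which it was 0.50 and met the criterion. Both probes were higher in HK on slide 2, by 0.55 and 0.67, while on slide 1 A_70_P039732 was higher by 0.28 and A_70_P039731 differed by -0.01. With the slide as a block the difference in A_70_P039731 was 0.36 and met the criterion (adjusted p = 0.88 by limma). The call for A_70_P039732 held when each of the 16 arrays was left out, with differences of 0.33 to 0.47.

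Ketamine in normoxic fetuses (NK-NC) gave differences of -0.33 (SE 0.19, adjusted p = 1.00 by limma) for A_70_P039731 and 0.00 (SE 0.14, adjusted p = 1.00 by limma) for A_70_P039732, with NK and NC overlapping in both. In this comparison 1.79% of probes met the criterion, 0.725% as higher and 1.07% as lower, and 3.52% had groups that did not overlap. The 225 probes behind that share became 385 when the replicate number was a block within each oxygen group, which changed no call of a kinase probe here. Between the ketamine groups (HK-NK) the PRKAA2 differences were 0.23 (SE 0.18, adjusted p = 0.954 by limma) and 0.18 (SE 0.13, adjusted p = 0.954 by limma). Here 5.18% of probes met the criterion, 2.87% as higher and 2.31% as lower, and 3.3% had groups that did not overlap. The interaction, the ketamine difference in hypoxia minus that in normoxia, was 0.66 (SE 0.26, 95% interval 0.12 to 1.21) for A_70_P039731. For A_70_P039732 it was 0.41 (SE 0.18, 95% interval 0.02 to 0.81). Both met the criterion with an adjusted p of 1.00 by limma, as did 3.4% of all probes, 2.39% as higher and 1.01% as lower. The HC and NC arrays enter both the HC-NC difference and the interaction, so these are not separate pieces of evidence. With the replicate number as a block the interaction of A_70_P039732 was 0.42 and missed the criterion (adjusted p = 0.934 by limma), as it did when any of 11 of the 16 arrays was left out. That of A_70_P039731 missed it without NC replicate 3 (0.57). In the same probe HK-NK met the criterion without HK replicate 2 (0.40) and NK-NC without NK replicate 3 (-0.44).

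**Figure D2:**
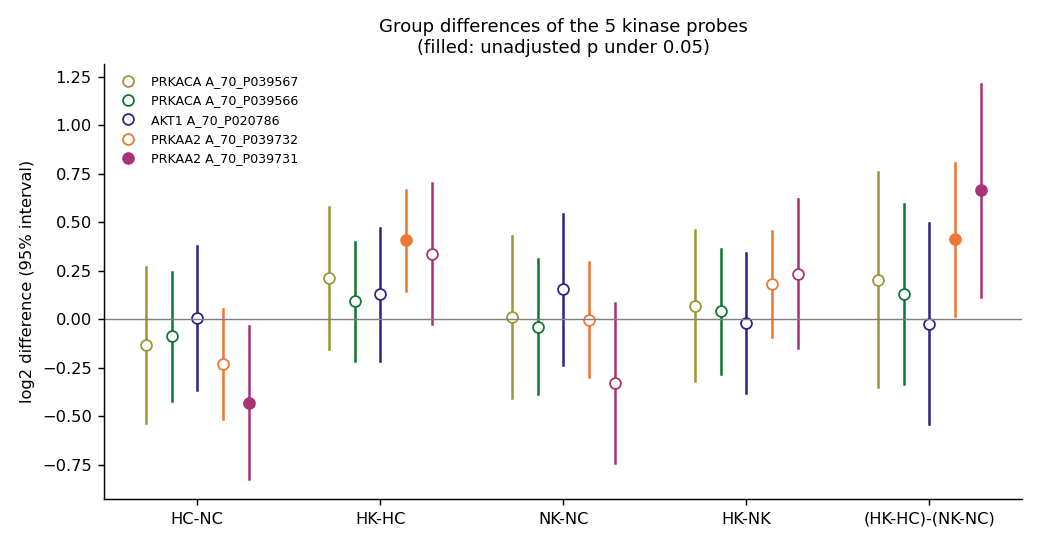
Log2 differences of the 5 probes (points, with vertical lines for the 95% interval of the moderated fit) in the 4 group comparisons and the interaction; filled points have an unadjusted p under 0.05. Filled points appear for PRKAA2 only: A_70_P039731 in HC-NC (-0.43), A_70_P039732 in HK-HC (0.41) and both in the interaction (0.66 and 0.41).

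When the levels of the 2 PRKAA2 probes were averaged in each array, the gene was lower in HC than in NC by -0.33 (adjusted p = 0.409 by limma), higher in HK than in HC by 0.37 (adjusted p = 0.972 by limma) and had an interaction of 0.54 (adjusted p = 1.00 by limma), each past the criterion. Across the 16 arrays the probes had a Pearson r of 0.563 (permutation p = 0.0258) and a Spearman rho of 0.535 (permutation p = 0.0349). Without HK replicates 3 and 4, the arrays farthest from the median of A_70_P039732, r was 0.259 over 14 arrays, so the size of r depended on those arrays. Leaving out the extremes of 1 probe narrows its range, which can by itself lower r. The permutations moved arrays freely across the groups, so these p-values also take in differences between groups. The deviations of the probes from their group means had an r of 0.41, which was not tested.

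The values the authors deposited for these arrays, a log2 table normalized between arrays, run over a much narrower range for dim probes. There the PRKAA2 probes spanned only 8.13 to 8.28 and 8.13 to 8.24, against -5.17 to -4.29 and -5.42 to -4.67 as levels from the scanner intensities. On the deposited values HC-NC was -0.05 for A_70_P039731 (adjusted p = 0.702 by limma) and HK-HC was 0.04 for A_70_P039732 (adjusted p = 1.00 by limma), and neither these nor the interactions (0.05 and 0.09) met the criterion. Normexp here subtracted each spot's local background, modelled the background left on each array and added an offset of 50. With it HC-NC turned positive for both PRKAA2 probes (0.89 for A_70_P039732 and 0.78 for A_70_P039731), but the median of 4523 dim probes moved to 0.95 in the same comparison. These dim probes were raised on 6 of the 16 arrays, where their median level lay above -3. With 1 background value per array in place of the local one, an alternative chosen after seeing the data, HC-NC was -0.24 for A_70_P039732 and HK-HC was 0.23 for A_70_P039731, both past the criterion. The same offset of 50 was added, and such a constant narrows the log2 differences of probes as dim as these. Under the same alternative the interaction of A_70_P039731 no longer met it.

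**Figure D3:**
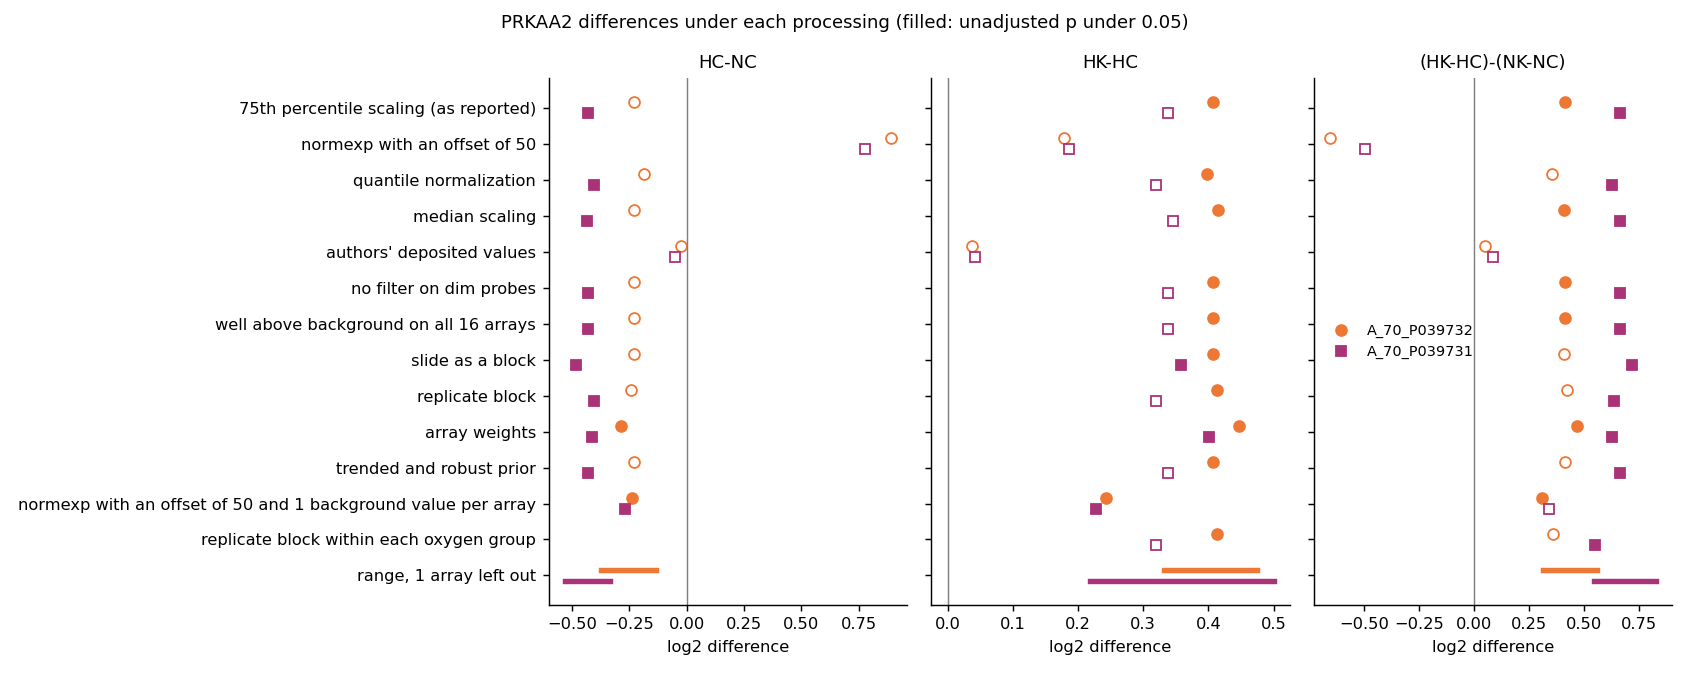
Log2 difference of the 2 PRKAA2 probes (horizontal axis; circles A_70_P039732, squares A_70_P039731) in HC-NC, HK-HC and the interaction under each processing (vertical axis); filled symbols have an unadjusted p under 0.05 and the bars give the range with 1 array left out. The signs turn with normexp on the local background in HC-NC and the interaction, and the deposited values lie closest to 0.

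PRKACA had overlapping groups in both probes. In A_70_P039566, the brighter of them, the levels were -3.32, -3.63 and -3.53 in NC, -3.86, -3.34, -3.44 and -3.48 in NK, -3.36, -3.44, -3.60, -3.70 and -3.82 in HC, and -3.55, -3.34, -3.25 and -3.83 in HK. The group means ± SD were -3.49 ± 0.26 in HK, -3.49 ± 0.15 in NC, -3.53 ± 0.23 in NK and -3.58 ± 0.19 in HC, differences smaller than the spread within each group. The largest difference of the 4 group comparisons was 0.09, for HK-HC (SE 0.14, 95% interval -0.22 to 0.40, adjusted p = 0.994 by limma), followed by -0.09 for HC-NC (SE 0.16, 95% interval -0.42 to 0.24, adjusted p = 0.885 by limma). These intervals leave room for differences of up to about 0.4 in either comparison.

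In A_70_P039567 the PRKACA levels were -4.07, -4.29 and -4.47 in NC, while the NK arrays kept within -4.29 to -4.21. They were -4.33, -3.86, -4.74, -4.48 and -4.63 in HC, and -4.19, -3.86, -4.14 and -4.59 in HK. HC replicate 2 and HK replicate 2 shared the highest level, and both are on slide 1. This was the member probe with the clearest slide difference: slide 2 was below slide 1 by -0.31 (SE 0.10, adjusted p = 0.163 by limma) and met the criterion, where 16.9% of all probes met the criterion for the slide. HK-HC was 0.21 (SE 0.17, 95% interval -0.16 to 0.58, adjusted p = 0.972 by limma), and it was 0.35 and met the criterion without HC replicate 2. HC-NC was -0.13 (SE 0.19, adjusted p = 0.852 by limma) but 0.08 on slide 1 and -0.15 on slide 2. The overlapping PRKACA probes had a Pearson r of 0.588 (permutation p = 0.0159) and a Spearman rho of 0.624 (permutation p = 0.0113) over the 16 arrays, and r was 0.586 without HC replicate 3 and HK replicate 2. The deviations of the PRKACA probes from their group means had an r of 0.568, which was not tested. The correlations of the PRKACA and the PRKAA2 probes were the 2 of their kind computed. After Benjamini-Hochberg adjustment both values of r had a permutation p of 0.0258, with arrays permuted across groups.

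AKT1 was measured by the brightest of the 5 probes, with levels of -0.71, -0.97 and -0.59 in NC and of -0.70, -0.59, -0.76 and -0.37 in NK. In HC they were -0.36, -0.96, -1.13, -0.73 and -0.57, and in HK they were -0.86, -0.31, -0.68 and -0.64. HC held the lowest level and nearly the highest one, so the other groups fell almost wholly inside its range. The means ± SD were -0.61 ± 0.18 in NK, -0.62 ± 0.23 in HK, -0.75 ± 0.31 in HC and -0.76 ± 0.19 in NC. HC-NC was 0.01 (SE 0.17, 95% interval -0.37 to 0.38, adjusted p = 0.995 by limma), HK-HC was 0.13 (SE 0.16, 95% interval -0.21 to 0.47, adjusted p = 0.994 by limma) and NK-NC was 0.15 (SE 0.18, 95% interval -0.24 to 0.54, adjusted p = 1.00 by limma). Within slides HC-NC took opposite signs, 0.18 on slide 1 and -0.22 on slide 2. Another probe, A_70_P061346, carries an expressed sequence from the same transcript cluster and has no gene name. It gave -0.02 for HC-NC (adjusted p = 0.982 by limma) and 0.07 for HK-HC (adjusted p = 0.994 by limma).

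The partners of these kinases were mostly unnamed on the array. Of 12 regulatory subunits, isoforms and AMPK subunits looked for, 1 had a named probe: PRKAR1A, a regulatory subunit that holds the PKA catalytic subunit inactive. Its levels ran from 3.05 to 3.19 in NC, 3.16 to 3.28 in NK, 3.14 to 3.44 in HC and 3.14 to 3.29 in HK, with overlapping groups and no difference past the criterion.

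In the list of cAMP and PKA signaling, 11 of 51 genes had a named probe and all 11 were tested. This list and those below were chosen with earlier results of these data known, so their shares are a description only. In HC-NC 0 were higher and 1 was lower at an unadjusted p under 0.05 by limma (9.09%, against 10.6% of all probes). It was ADRB1, the beta 1 adrenergic receptor, which activates adenylyl cyclase, at -0.68 (SE 0.19, adjusted p = 0.199 by limma). All 5 HC arrays of ADRB1 lay between -5.32 and -4.78, below the NC range of -4.44 to -4.13. In HC-NC 7.63% of all probes had groups that did not overlap. In HK-HC 2 of 11 were higher and none lower (18.2%, against 4.77% of all probes in either direction and 2.89% as higher): ADRB1 by 0.40 (SE 0.17, adjusted p = 0.972 by limma) and ADCYAP1, the neuropeptide PACAP that raises cAMP, by 1.98 (SE 0.90, adjusted p = 0.972 by limma). The HK arrays of ADRB1, from -4.90 to -4.31, overlapped those of HC. ADCYAP1 varied widely, from -1.48 to 2.53 among the HC arrays, from 1.63 to 2.86 in HK and from -1.19 to 2.40 in NC. ADRB1 also met the criterion for the interaction, at 0.68 (SE 0.26, adjusted p = 1.00 by limma). The list had a median difference of 0.03 in HC-NC, against -0.02 over all probes, and of 0.09 in HK-HC, against 0.02. None of the 11 met the criterion in NK-NC or HK-NK.

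The list of insulin, PI3K and AKT signaling had 16 of 61 genes on the array, all 16 tested. In HC-NC 1 was higher and 1 lower. MCL1, a survival protein of the BCL2 family, was higher by 0.71 (SE 0.21, adjusted p = 0.209 by limma), and its 5 HC arrays, from -1.35 to -0.33, lay above the NC arrays at -1.78 to -1.72. Groups did not overlap for 7.63% of all probes in HC-NC. IGF1, the ligand of the IGF1 receptor, fell by 0.59 (SE 0.27, adjusted p = 0.454 by limma). In HK-HC none was higher and 2 were lower: MCL1 fell by 0.54 (SE 0.19, adjusted p = 0.972 by limma), and IGF1R, the receptor for IGF1, fell by 0.35 (SE 0.13, adjusted p = 0.972 by limma), from -2.15 ± 0.22 in HC to -2.50 ± 0.18 in HK. The medians of the list, -0.08 in HC-NC and 0.07 in HK-HC, were close to 0, and 12.5% of the list met the criterion in either comparison, against 10.6% and 4.77% of all probes. By limma no gene of the list met the criterion in NK-NC, HK-NK or the interaction.

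In the list of AMPK signaling and energy metabolism, 16 of 68 genes had a named probe and 14 were tested. Here 5 of 14 met the criterion in HC-NC (35.7%, against 10.6% of all probes), 2 as higher and 3 as lower. PRKAA2 itself is 1 of these 5, and the list was chosen with earlier results known, so this share is not separate support. SLC2A3, the glucose transporter GLUT3 of neurons, was higher by 1.13 (SE 0.29, adjusted p = 0.187 by limma), with levels of 3.60 to 5.09 in HC and 3.11 to 3.41 in NC. PPARG, a nuclear receptor of lipid metabolism, was higher by 0.53 (SE 0.18, adjusted p = 0.284 by limma), with HC and NC overlapping. Beside PRKAA2 itself, CPT1A, which brings long-chain fatty acids to the mitochondrion, fell by 0.86 (SE 0.34, adjusted p = 0.377 by limma), with HC arrays at -1.97 to -1.31 below NC arrays at -1.03 to -0.66. For SLC2A3 and CPT1A the groups did not overlap, as for 7.63% of all probes in HC-NC. LPL, lipoprotein lipase, fell by 0.72 (SE 0.31, adjusted p = 0.431 by limma), with HC and NC overlapping. Across the list 4 of 14 differences were above 0 in HC-NC (median -0.25) and 9 of 14 in HK-HC (median 0.24). These comparisons share the 5 HC arrays with opposite sign, as they do for PRKAA2 and the other lists, so opposite values in them are not separate evidence. In HK-HC PPARGC1A, the coactivator PGC-1 alpha that AMPK can phosphorylate, was higher by 0.37 (SE 0.16, adjusted p = 0.972 by limma) and PPARG fell by 0.44 (SE 0.17, adjusted p = 0.972 by limma), 14.3% of the list against 4.77% of all probes. By limma none of the 14 met the criterion in NK-NC or HK-NK, and 1, PRKAA2, did in the interaction. In the 3 lists together no gene passed Benjamini-Hochberg adjustment over all probes.

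**Figure D4:**
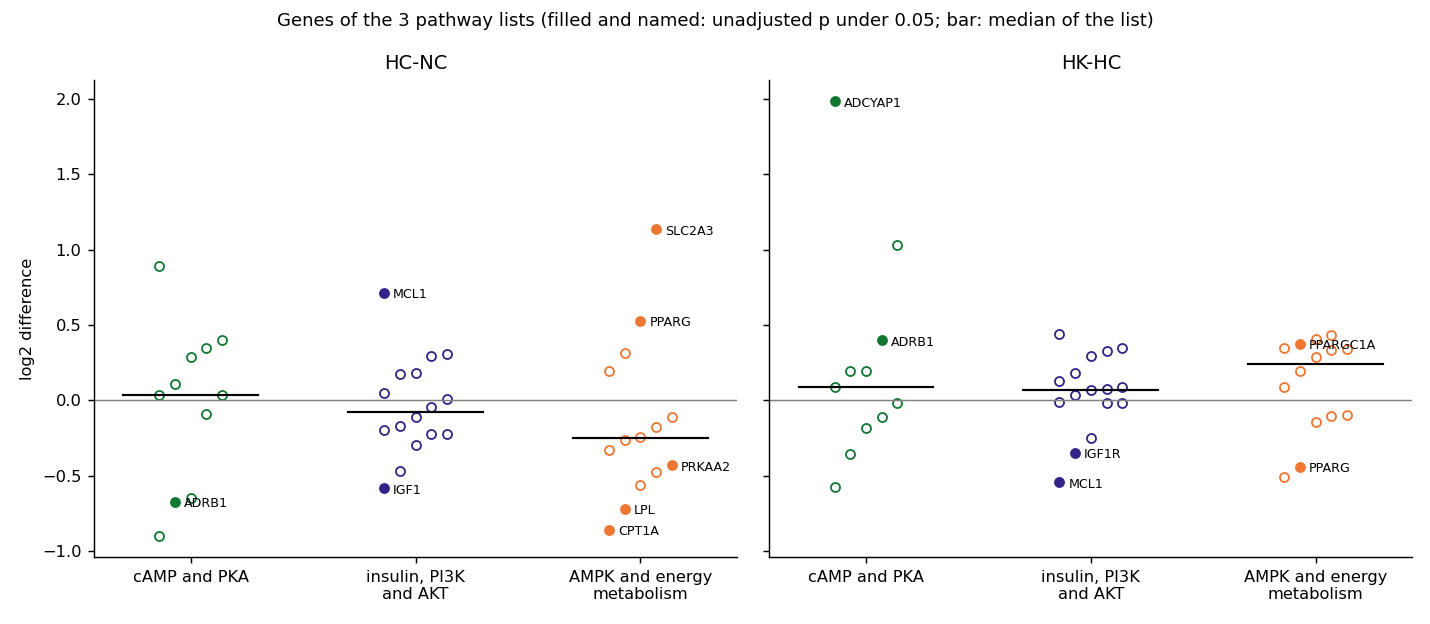
Log2 differences of the tested genes in the 3 pathway lists (vertical axis) for HC-NC and HK-HC, 1 point per gene by its brightest probe; filled and named points have an unadjusted p under 0.05 and black bars give the list's median. The AMPK and energy metabolism list has medians of -0.25 and 0.24 in these comparisons, and the other medians lie between -0.08 and 0.09.

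The genes whose levels over the 16 arrays were most like those of PRKAA2 (A_70_P039731), among 635 named genes well above background throughout, were NUS1 (r = 0.834), PSIP1 (0.793), FTO (0.785), the AMPA receptor subunit GRIA4 (0.78) and carboxypeptidase E, CPE (0.773). For PRKACA (A_70_P039566) they were CD93 (r = 0.696), DGAT1 (0.669), CYGB (0.648), ALDOA (0.638) and TIMP2 (0.631). For AKT1 they were CTSF (r = 0.731), SLC39A3 (0.728), POMC (0.71), RGS2 (0.704) and LGALS1 (0.691). These are Pearson correlations picked as the highest of many, over arrays that share slides and groups, and are given as a description.

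GRIA4 is also 1 of the 6 neuron markers tested, and cell type markers met the criterion in comparisons with and without a PRKAA2 call. In HK-NK, where neither PRKAA2 probe met it, GRIA4 was higher by 0.31 and the endothelial marker SELP by 2.53 (5.18% of all probes met it). In the interaction GRIA4 (0.65) and the microglia marker FCGR1A (-1.31) met it, as did 3.4% of all probes. In HC-NC 4 of the 6 neuron markers (GRIN1, GRIA1, GRIA2 and GRIA4) were lower and 0 were higher, and the summed linear level of the 6 was 35.2 to 41.3 in NC, 9.81 to 47.1 in HC, 32.4 to 46.7 in NK and 44.5 to 48.0 in HK. Such sums add levels of different probes, so the brightest probes weigh most and the sums do not measure cell content. In HK-HC 1 of the 6, GRIA4, was higher. Over all probes 5.91% were lower and 4.67% higher in HC-NC, and 2.89% were higher and 1.88% lower in HK-HC. Of the 6 microglia and macrophage markers 3 were higher in HC-NC (FCER1G, FCGR1A and CD14) and 2 were lower in HK-HC (FCGR1A and CD14), with sums of 0.505 to 0.631 in NC, 0.832 to 2.13 in HC, 0.542 to 0.642 in NK and 0.574 to 1.05 in HK. Among 5 endothelial markers tested, 2 were higher in HC-NC (SELP and ICAM1), with sums of 1.06 to 1.21 in NC, 1.28 to 3.89 in HC, 0.874 to 1.34 in NK and 1.1 to 1.95 in HK. The part of these shifts in the PRKAA2 differences was not tested. Astrocyte markers had sums of 111 to 117 in NC and 101 to 148 in HC, and 1 of 4, GJA1, was higher in HC-NC. Choroid plexus markers ranged widely within every group, from 0.92 to 77.5 in HC and from 1.48 to 84.0 in NC, and neither they nor the 1 red blood cell marker on the array, HBB, had a difference past the criterion in HC-NC or HK-HC.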

How the data were processed

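Total RNA of fetal hippocampus was labelled with Cy3 and hybridised to 16 one-colour Agilent sheep arrays. The deposited scanner files hold intensities from Feature Extraction 10.1.1.1 per the file headers, with background subtracted in the processed signal, and flags for spots well above background (13 SD). The authors also deposited log2 values, made with limma in R 2.15.1 per the submitters' notes, which have near-equal quantiles on all arrays (medians 8.68 to 8.69); their background treatment is not given in the sources used here.

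From the processed intensities log2 was taken, each array's 75th percentile of non-control probes was subtracted, outlier spots were left out, and spots of a probe were averaged. A probe entered the tests if at least 3 of its 16 spots were well above background (12545, 83.6%). One limma 3.58.1 fit (R 4.3.3) over the 4 groups gave two-sided moderated tests, with the study's criterion of p under 0.05 and Benjamini-Hochberg values beside it. The fit was tested on simulated data. Permutation tests of group differences were exact and run in R 4.3.3. Those of correlations used 100000 draws in scipy 1.17.1. The number of arrays limits the precision.

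Symbols came from the RefSeq gene table of assembly ARS-UI_Ramb_v3.0 by accession (726 probes), which holds all 3 kinases (PRKACA under the older name Calpha in the files), or from the files (1431 probes with a symbol in all). All member probes were named; of the lists, each gene was taken by its brightest probe, and up to 6 genes per list past the criterion were named, with direct partners and the 5 most alike genes per kinase. The members and lists were chosen with earlier results of these data known.

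Arrays of NC and NK with the same replicate number deviated together (r = 0.375, 0.308 and 0.205, against a mean of -0.10 for other numbers). NC replicate 3 was closest to NK replicate 4. Arrays with the same number also shared a slide, and the mean for other numbers takes in arrays of both slides. NC replicates 1 and 2 were each closest to the NK array of the same number, with NK replicates 1 and 2 on the same slide. Whether same-numbered arrays are pairs from a single ewe was not tested. The main tests did not pair arrays. Alternatives were background correction, scaling, the deposited values, filters on dim probes, slide and replicate blocks, array weights, a trended and robust prior, averaging a gene's probes, and leaving out each array.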

Additional observations from a re-analysis of the deposited data

Results flagged for a closer look

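The ketamine difference of PRKAA2 differed between hypoxic and normoxic fetuses by the interaction test. In A_70_P039731 the ketamine difference was 0.34 in hypoxia and -0.33 in normoxia, which differ by 0.66. In A_70_P039732 it was 0.41 in hypoxia and 0.00 in normoxia, which differ by 0.41. Both met the study's criterion of an unadjusted p under 0.05 by limma. With the replicate number as a block the interaction of A_70_P039732 was 0.42 and missed the criterion, as it did in 11 of 16 fits with 1 array left out, and that of A_70_P039731 missed it without NC replicate 3 (0.57). Both missed it on the deposited values and turned negative with normexp on the local background (-0.66 and -0.50). That of A_70_P039732 also missed it under other alternatives given below, and that of A_70_P039731 with 1 background value per array. Neither passed Benjamini-Hochberg adjustment over 12545 probes, and 3.4% of all probes met the criterion. In the NK, HC and HK groups of the 5 probes, 15 sets of arrays in all, no single array stood far enough from the rest to be singled out by Dixon's test. NC, with 3 arrays, was not tested in that way.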

How the results depend on the processing

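Among 740 recomputed values of the 5 probes, 652 kept their direction and their side of the criterion (297 of 340 when no array was left out). None of the alternatives brought a kinase probe past Benjamini-Hochberg adjustment, with 0.252 as the lowest adjusted p by limma. The call of A_70_P039732 in HK-HC was lost with normexp on the local background and with the deposited values, and with no other alternative run. The PRKACA and AKT1 values that changed sign lay far from the criterion on both sides. The 3 to 5 arrays per group limit the precision of every difference.

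With normexp on the local background HC-NC turned to 0.88 and 0.67 for PRKACA (A_70_P039567 and A_70_P039566) and to 0.89 and 0.78 for PRKAA2 (A_70_P039732 and A_70_P039731), while NK-NC turned to 0.63 for PRKACA A_70_P039566 and to 0.83 and 0.68 for PRKAA2. The interactions turned to -0.69, -0.58, -0.66 and -0.50 in the same order of probes, and HK-HC of A_70_P039732 was 0.18 and no longer past the criterion. Under it the median of all probes moved from -0.02 to 0.36 in HC-NC, from 0.01 to 0.30 in NK-NC and from 0.01 to -0.33 in the interaction. With 1 background value per array, chosen after seeing the data, HC-NC was -0.061 for AKT1 and -0.237 for A_70_P039732 (now past the criterion), HK-HC of A_70_P039731 was 0.227 (now past it), and the interaction was 0.019 for AKT1 and 0.34 for A_70_P039731 (no longer past it).

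The PRKAA2 probe A_70_P039732 had an NK-NC difference of 0.043 with quantile normalization and of 0.0073 with median scaling, where the main value was just below 0. Its interaction missed the criterion with quantile normalization (0.36), the slide as a block (0.409), the replicate block (0.42), a trended and robust prior (0.41) and the deposited values (0.047). The deposited values also gave HC-NC of 0.0029 for PRKACA A_70_P039567, -0.035 for AKT1 and -0.053 for A_70_P039731, HK-HC of 0.038 for A_70_P039732 and an interaction of 0.087 for A_70_P039731, the last 3 no longer past the criterion. HK-HC of A_70_P039731 passed it with the slide as a block (0.36), array weights (0.40) and the mean of the gene's probes (0.37). Array weights also took HC-NC of A_70_P039732 past it (-0.29) and gave HC-NC of -0.035 and an interaction of 0.023 for AKT1 and NK-NC of -0.0067 for PRKACA A_70_P039567.

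For HC and HK same-numbered arrays had correlations of 0.396, 0.306, 0.0725 and 0.126, against a mean of -0.0565 for other numbers. HC replicates 1, 2 and 3 were closest to the HK array of the same number, and HC replicate 4 to HK replicate 3. These same-numbered arrays also shared a slide, but each slide held several numbers of both groups. Whether the same-numbered arrays are pairs was not tested. With the replicate block over all groups, HC-NC was 0.020 and NK-NC 0.012 for PRKACA A_70_P039566, and HC-NC was -0.071 and the interaction 0.051 for AKT1. With a replicate block within each oxygen group, chosen after seeing the data, NK-NC of A_70_P039732 was 0.057, its interaction 0.356 (no longer past the criterion) and the interaction of AKT1 0.099. No other call of a kinase probe changed with either block.

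Leaving out 1 array at a time gave HC-NC of -0.099 to 0.10 for AKT1, -0.37 to -0.13 for A_70_P039732 and -0.53 to -0.33 for A_70_P039731. HK-HC ran from 0.10 to 0.35 for PRKACA A_70_P039567 and from 0.22 to 0.50 for A_70_P039731. Calls were gained for A_70_P039732 in HC-NC without NC replicate 3 (-0.37), for A_70_P039731 in HK-HC (0.50) and HK-NK (0.40) without HK replicate 2 and in NK-NC without NK replicate 3 (-0.44), and for PRKACA A_70_P039567 in HK-HC without HC replicate 2 (0.35). NK-NC ran from -0.086 to 0.11 and from -0.11 to 0.070 for the PRKACA probes A_70_P039567 and A_70_P039566, from -0.15 to 0.093 for A_70_P039732 and from -0.44 to -0.23 for A_70_P039731. HK-NK ran from -0.042 to 0.20 and from -0.069 to 0.15 for the PRKACA probes, from -0.12 to 0.061 for AKT1 and from 0.12 to 0.40 for A_70_P039731. The interaction ran from -0.13 to 0.080 for AKT1, from 0.31 to 0.56 for A_70_P039732 and from 0.55 to 0.83 for A_70_P039731, whose call was lost without NC replicate 3 (0.57).

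Over all probes 1328 met the criterion in HC-NC, 598 in HK-HC, 225 in NK-NC, 650 in HK-NK and 427 in the interaction. With normexp on the local background the counts were 569, 90, 18, 73 and 98, and with Benjamini-Hochberg adjustment by limma 2, 0, 0, 0 and 0. In HK-HC the count was 1054 with the replicate block, 1212 with the block within each oxygen group, 951 with array weights and 406 to 1079 with 1 array left out, the highest without HC replicate 1. In NK-NC it was 144 with probes well above background on all arrays, 385 with the block within each oxygen group, 405 with array weights and 104 with 1 background value per array. In HK-NK it was 1065 with the replicate block. For the interaction it was 663 and 752 with these blocks, 646 with array weights and 316 to 655 with 1 array left out.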
